A study of Homo sapiens with 12 samples.

Results

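The collagen genes were taken from the 2 deposited expression tables by their symbols, as every gene named COL, a number, A and a number, also where the tables join such a symbol with another. This rule found 44 of the 48114 genes listed, on 17 chromosomes, and used no measured value. Each table holds polyA-selected RNA of a pancreatic ductal adenocarcinoma (PDAC) cell line. The basal-like PANC-1 line, from an epithelioid carcinoma, had received siCtrl, siQKI or siRBFOX2, which are siRNAs of a control sequence, against the splicing regulator QKI or against the splicing regulator RBFOX2. The libraries were made 48 h after transfection, and the labels give 40 nM for silencing of QKI and RBFOX2. The classical HPAF-II line, from an adenocarcinoma, had received siCtrl only. Each of the 4 groups has 3 libraries. Every group is a single established line kept without stroma, the knockdowns are transient, and the labels do not say whether the 3 libraries of a group came from separate cultures, so the p-values may measure technical spread only.

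Collagens are secreted or membrane-bound proteins built from 3 α chains that wind into a triple helix. Fibrillar collagens such as types I, III, V and XI assemble into fibers, type IV forms the sheet-like network of basement membranes, type VI forms beaded filaments, type VII anchors epithelia to the stroma, and the FACIT collagens sit on the surface of fibrils. Other members span the cell membrane (types XIII, XVII, XXIII and XXV) or release an anti-angiogenic fragment, as type XVIII does with endostatin. In PDAC the dense collagen matrix is known as a product mainly of stromal fibroblasts, and carcinoma cells contribute basement membrane and transmembrane collagens.

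The type IV genes are arranged in head-to-head pairs, and their promoters are shown because the partner chains of each pair are compared below. By the start sites of RefSeq (GRCh38.p14), COL4A1 and COL4A2 are transcribed away from each other on chromosome 13 from starts that lie 127 bases apart. The corresponding distances are 419 bases for COL4A3 and COL4A4 on chromosome 2 and 380 bases for COL4A5 and the nearer start of COL4A6 on the X chromosome. The windows of 250 bases before to 50 bases after the start of the + strand partner are given here, 5′ to 3′, at chr13:110307034-110307333 for COL4A2 and chrX:108439588-108439887 for COL4A5. Capitals mark the bases that lie between the start sites of the pair (127 bases in the first window and 250 bases in the second).
COL4A2: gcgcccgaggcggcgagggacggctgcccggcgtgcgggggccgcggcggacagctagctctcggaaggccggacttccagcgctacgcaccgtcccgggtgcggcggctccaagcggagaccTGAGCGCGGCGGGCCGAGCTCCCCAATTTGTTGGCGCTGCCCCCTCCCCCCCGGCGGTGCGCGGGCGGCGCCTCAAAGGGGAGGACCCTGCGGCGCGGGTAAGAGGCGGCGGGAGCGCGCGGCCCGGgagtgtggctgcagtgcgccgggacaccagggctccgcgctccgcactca
COL4A5: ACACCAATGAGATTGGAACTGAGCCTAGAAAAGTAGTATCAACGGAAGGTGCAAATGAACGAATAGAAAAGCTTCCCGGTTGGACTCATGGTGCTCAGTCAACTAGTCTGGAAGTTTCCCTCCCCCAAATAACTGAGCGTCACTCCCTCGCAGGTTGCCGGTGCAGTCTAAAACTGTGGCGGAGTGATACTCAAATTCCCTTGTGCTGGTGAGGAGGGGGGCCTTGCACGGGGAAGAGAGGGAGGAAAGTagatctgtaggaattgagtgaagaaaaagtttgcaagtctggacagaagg
The shared COL4A1 and COL4A2 window holds 77.7% G and C, the COL4A5 window 49.3%, and the median of the 35116 windows of the same length in the table is 58.7%. Read on both strands, the letters CCAAT and CCCTCCCC occur in both windows, GGGCGG in the COL4A2 window only and TATAAA in neither. Over all 35116 windows the shares are 34.6% for CCAAT, 13.6% for CCCTCCCC, 45.0% for GGGCGG, which can overlap a longer run of G, and 11.5% for TATAAA. The table has entries for 32 of the 44 collagen genes, and such letter matches describe these windows only.

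The deposited values are normalized counts, that is, gene counts that the authors scaled with 1 size factor per library, and 33 collagen genes averaged at least 10 of them over the 9 PANC-1 libraries. These 33 were tested with limma among 22544 genes on log2(normalized count + 1), and all 33 also reached a mean of 10 in siCtrl cells alone. The 11 others were COL1A2, COL4A3, COL4A4, COL6A5, COL6A6, COL8A1, COL9A1, COL10A1, COL19A1, COL23A1 and COL25A1, and COL8A1 was listed at 0 in all 12 libraries. The siRNA targets fell in the libraries labelled for them, QKI by 2.34 (adjusted p = 9.15e-13) and RBFOX2 by 2.89 (adjusted p = 4.70e-11) on the log2 scale in limma's test. Of the 7 ductal markers checked (KRT7, KRT8, KRT18, KRT19, EPCAM, CDH1 and MUC1), all were above 0 in every library, and their sum lay between 2572 and 2666 per 1000000 in siCtrl, 2584 and 2745 in siQKI, 2155 and 2314 in siRBFOX2 and 11676 and 12564 in HPAF-II libraries. Of the 7 fibroblast markers (PDGFRA, PDGFRB, DCN, LUM, FAP, THY1 and POSTN), DCN was at 0 in every PANC-1 library, and LUM and FAP were at 0 in every PANC-1 siCtrl library. In PANC-1 the summed level of the list, most of it THY1, was 15.9 to 22.7 per 1000000 in siCtrl, 17.7 to 20.4 in siQKI and 17.4 to 21.4 in siRBFOX2 libraries. The sum was 1.42 to 2.34 in HPAF-II libraries, where THY1 was at 0, so the sums of the lines rest on different genes. PDGFRB, a fibroblast and pericyte receptor that was also listed in PANC-1 cells, rose by 1.42 (standard error 0.28, limma adjusted p = 0.00097) in siQKI and 0.89 (standard error 0.28, limma adjusted p = 0.0276) in siRBFOX2 cells, and its part in the results below was not tested. In bulk RNA, fewer cells of a type and less RNA per cell cannot be told apart.

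The collagen RNA of PANC-1 cells was dominated by COL18A1, which encodes the basement membrane collagen that releases endostatin. To compare genes and lines, values were rescaled so that the genes shared by the tables sum to 1000000 per library, and each gene was divided by the length of its transcript. On this scale (rescaled counts per 1000000 and kilobase, mean ± SD, n = 3) COL18A1 stood at 112 ± 1.4 in siCtrl cells, and it made up 60.8%, 63.5% and 62.6% of all collagen counts in the 3 libraries. The next 3 genes were chains of fibrillar collagens V and XI, with 18.5 ± 0.852 for COL5A2, 12.9 ± 1.06 for COL11A1 and 8.53 ± 0.269 for COL5A1. Type VI chains followed, COL6A2 at 7.57 ± 0.229 and COL6A1 at 6 ± 0.681, and then COL9A3 at 3.9 ± 0.142, a chain of the FACIT collagen IX, and the transmembrane COL13A1 at 3.08 ± 0.425. In this order of 8 genes, no neighbors had overlapping ranges over the 3 libraries. COL4A1 came next at 2.16 ± 0.0524, and 6 of the 44 genes were listed at 0 in all 3 siCtrl libraries.

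**Figure D1:**
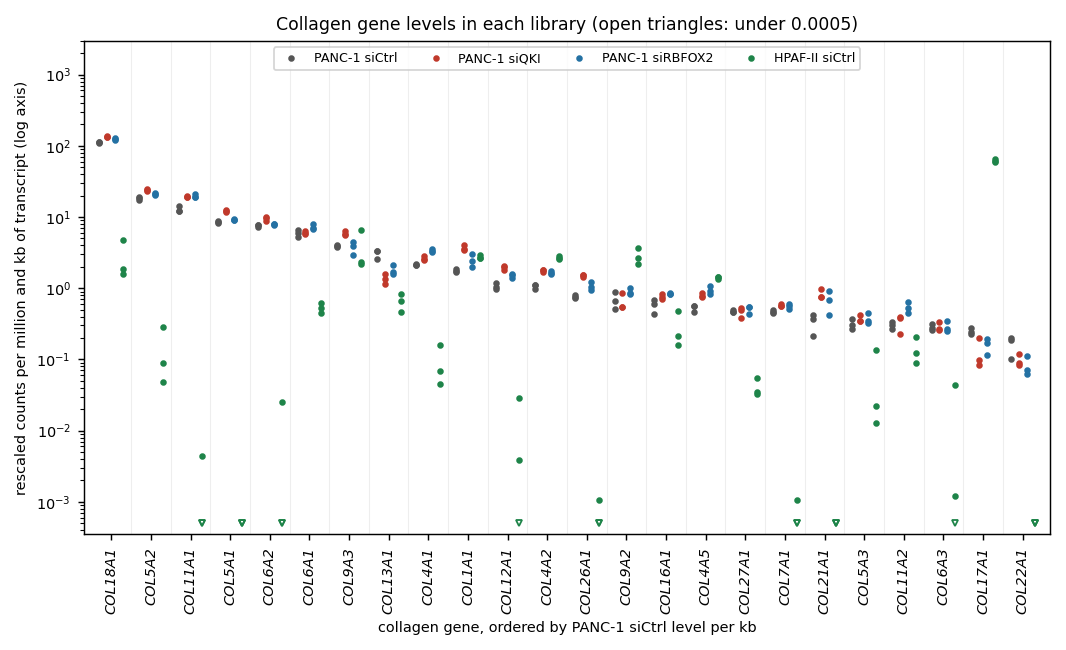
Level of the 24 most highly expressed collagen genes of PANC-1 siCtrl cells, which include the 8 highest of HPAF-II siCtrl cells, in each of the 12 libraries (points, colored by group) as rescaled counts per 1000000 and kilobase of transcript on a log axis. COL18A1 is highest in the 9 PANC-1 libraries and COL17A1 in the 3 HPAF-II libraries, and open triangles at the bottom stand for libraries below 0.0005, most of them listed at 0.

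COL1A1 and COL1A2, the chains of collagen I, were unequally represented. COL1A1 had 4282, 4128 and 3869 normalized counts in the siCtrl libraries, and COL1A2 was listed at 0 in all 3. COL1A2 reached 0, 5.23 and 9.44 in siQKI and 10.5, 0 and 44.5 in siRBFOX2 libraries, under the filter of a mean of 10 over the 9 libraries. Collagen I is usually a trimer of both kinds of chain, with COL1A1 chains in the majority.

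Collagen genes rose more often than they fell after either knockdown. Of the 33 genes tested, 18 passed in siQKI cells the threshold of an adjusted p under 0.05 (54.5%), 15 higher and 3 lower, where 33.0% of all tested genes passed it, 14.9% higher and 18.1% lower. In siRBFOX2 cells 17 of 33 passed (51.5%), 15 higher and 2 lower, against 26.5% of all tested genes, 12% higher and 14.5% lower. The median log2 fold change of the 33 was 0.30 in siQKI and 0.23 in siRBFOX2 cells, beside 0.03 and 0.01 over all tested genes. The share of each library in collagen genes was 0.118% to 0.120% in siCtrl, 0.149% to 0.152% in siQKI and 0.134% to 0.141% in siRBFOX2 libraries, and these ranges did not overlap. Without the most abundant collagen gene, COL18A1, the shares were 0.0430% to 0.0472%, 0.0604% to 0.0620% and 0.0533% to 0.0583%, again without overlap. Rescaling each library by its upper quartile changed the collagen counts little (16 higher and 2 lower in each knockdown), although it moved the higher share of all calls from 45.2% to 58.0% in siQKI and from 45.3% to 53.5% in siRBFOX2 cells. The 3 siCtrl libraries are the controls of each knockdown, and the values are given side by side.

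**Figure D2:**
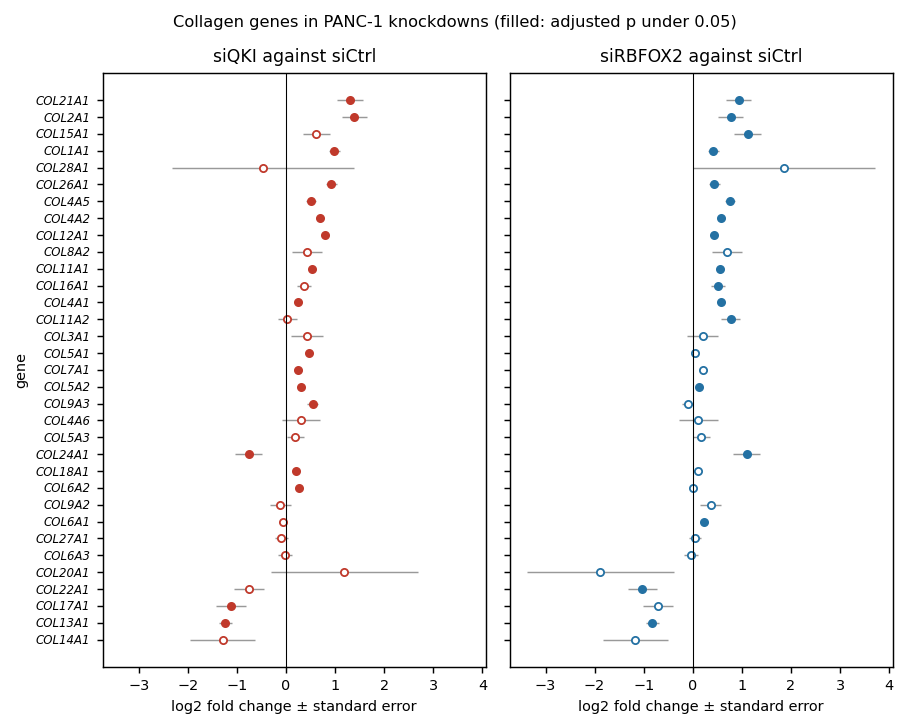
Log2 fold change (points) with its standard error (bars) of the 33 tested collagen genes in siQKI (left) and siRBFOX2 (right) cells against the same 3 siCtrl libraries, with genes ordered by the sum of both values. Filled points passed an adjusted p of 0.05; most lie right of 0, COL13A1 lies left of 0 in both panels, and COL24A1 lies left of 0 in siQKI and right of 0 in siRBFOX2 cells.

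Of the 4 tested type IV genes, which build the basement membrane network, 3 rose in each knockdown (75%). Of all tested genes, 14.9% rose in siQKI and 12% in siRBFOX2 cells. COL4A1 (GSHG0011892; chromosome 13, 110148963 to 110307157 on hg38) had 4966, 4864 and 4914 normalized counts in the siCtrl, 6279, 5669 and 5462 in the siQKI and 7323, 7523 and 7034 in the siRBFOX2 libraries. All knockdown libraries lay above all siCtrl libraries, with siRBFOX2 above siQKI. The log2 fold change was 0.24 (standard error 0.06, limma adjusted p = 0.00634) in siQKI and 0.57 (standard error 0.06, limma adjusted p = 6.13e-06) in siRBFOX2 cells. COL4A2 (GSHG0011306; chromosome 13, 110307284 to 110513209), its head-to-head partner, had 2477, 2172 and 2469 normalized counts in the siCtrl, 3939, 3904 and 3590 in the siQKI and 3444, 3620 and 3538 in the siRBFOX2 libraries. Here too the siCtrl libraries were lowest, but the siQKI and siRBFOX2 ranges overlapped. COL4A2 rose by 0.68 (standard error 0.07, limma adjusted p = 3.67e-06) in siQKI and 0.58 (standard error 0.07, limma adjusted p = 3.53e-05) in siRBFOX2 cells.

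The partner chains thus shifted unequally in siQKI cells. Per kilobase, the COL4A2 to COL4A1 ratio was 0.508, 0.455 and 0.512 in siCtrl libraries, 0.639, 0.702 and 0.670 in siQKI libraries and 0.479, 0.490 and 0.512 in siRBFOX2 libraries. The siQKI ratios were above all others, and the siRBFOX2 ratios lay within or next to the siCtrl range. Collagen IV trimers of most basement membranes contain both chains, with α1 in the majority. COL4A5 (GSHG0046004; chromosome X, 108439838 to 108697545), a chain of the kidney and skin basement membrane mutated in Alport syndrome, had 1245, 1287 and 1053 normalized counts in the siCtrl, 1631, 1800 and 1661 in the siQKI and 2016, 2259 and 1811 in the siRBFOX2 libraries. Every knockdown library was above every siCtrl library, and COL4A5 rose by 0.51 (standard error 0.11, limma adjusted p = 0.00165) and 0.76 (standard error 0.11, limma adjusted p = 8.91e-05). COL4A6, which shares its promoter region, did not pass the threshold (0.30 and 0.11 on the log2 scale, with a standard error of 0.40), and its reads cannot be told from those of ATG4A where both genes overlap, since the strand of counting is not stated. All type IV calls held in each of 17 alternative analyses, which set no minimum fold. A fold of at least 1.5 was not reached by COL4A1 (1.18 in siQKI and 1.48 in siRBFOX2 cells). Nor was it reached by COL4A2 in siRBFOX2 cells (1.49) or COL4A5 in siQKI cells (1.42).

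**Figure D3:**
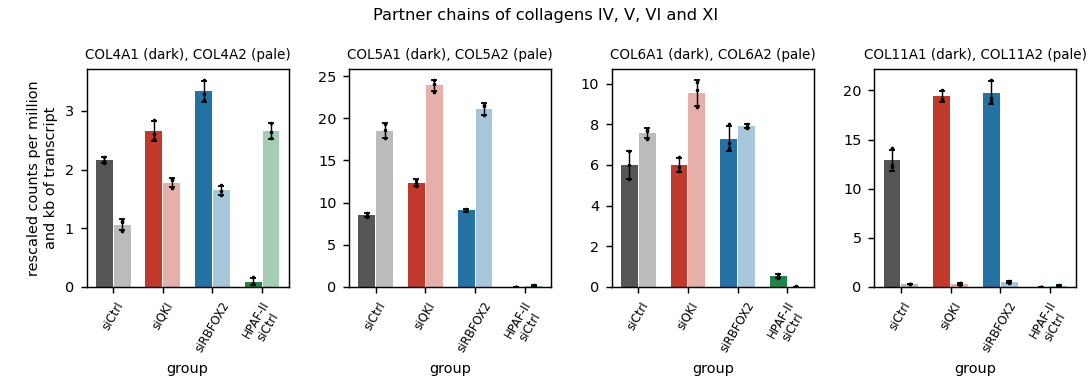
Level of partner chains of collagens IV, V, VI and XI as rescaled counts per 1000000 and kilobase of transcript (bars, mean of 3 libraries; lines, SD; dots, libraries) in the 4 groups. COL4A2 (pale) gains on COL4A1 (dark) in siQKI cells and exceeds it only in HPAF-II cells, and COL11A2 is far below COL11A1 in all PANC-1 groups.

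Of the 11 fibrillar genes 10 were tested, and 5 rose and 1 fell in siQKI cells while 6 rose in siRBFOX2 cells. Over all tested genes 14.9% were higher and 18.1% lower in siQKI cells, and 12% were higher in siRBFOX2 cells. By upper-quartile rescaling 5 fibrillar genes rose and 0 fell in siQKI cells. COL1A1 (GSHG0019422; chromosome 17, 50183289 to 50201632), the main chain of collagen I, had 4282, 4128 and 3869 normalized counts in the siCtrl, 8969, 7589 and 7808 in the siQKI and 5535, 6618 and 4460 in the siRBFOX2 libraries. It was highest in siQKI libraries, intermediate in siRBFOX2 libraries and lowest in siCtrl libraries, with no overlap. The log2 fold change was 0.99 (standard error 0.11, limma adjusted p = 5.29e-06) in siQKI, that is 1.98-fold, and 0.42 (standard error 0.11, limma adjusted p = 0.0097) in siRBFOX2 cells. The siRBFOX2 call was lost without the mean-variance trend (adjusted p = 0.0920 from limma). 

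COL5A1 and COL5A2, chains of collagen V, which regulates fibril diameter, were highest in siQKI cells. COL5A1 (GSHG0043935; chromosome 9, 134641803 to 134844843) had 25330, 24477 and 24765 normalized counts in the siCtrl, 33640, 34367 and 35411 in the siQKI and 25522, 25251 and 25694 in the siRBFOX2 libraries. The siQKI libraries stood apart, and the siRBFOX2 libraries overlapped the siCtrl libraries. COL5A1 rose by 0.47 (standard error 0.04, limma adjusted p = 1.93e-07) in siQKI cells and had a log2 fold change of 0.04 (standard error 0.04, limma adjusted p = 0.543) in siRBFOX2 cells. COL5A2 had 46411, 43504 and 45474 normalized counts in the siCtrl, 57798, 55819 and 53834 in the siQKI and 51541, 48808 and 48155 in the siRBFOX2 libraries. Its 3 groups did not overlap. COL5A2 rose by 0.31 (standard error 0.04, limma adjusted p = 4.18e-05) and 0.13 (standard error 0.04, limma adjusted p = 0.0279). The siRBFOX2 rise of COL5A2 lost its call without siCtrl replicate 2, siCtrl replicate 3 or siRBFOX2 replicate 1 and without the trend, with adjusted p up to 0.127 in limma.

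COL11A1, a collagen XI chain that is used as a marker of cancer-associated fibroblasts, was the third collagen gene by level in these carcinoma cells. It had 35067, 31540 and 30938 normalized counts in the siCtrl, 48991, 46079 and 45666 in the siQKI and 47525, 49727 and 46380 in the siRBFOX2 libraries. Both knockdowns lay above siCtrl and overlapped each other, and COL11A1 rose by 0.53 (standard error 0.05, limma adjusted p = 1.04e-06) and 0.56 (standard error 0.05, limma adjusted p = 1.24e-06). Its partner COL11A2 had 672, 761 and 589.6 normalized counts in the siCtrl, 482, 805 and 822 in the siQKI and 984, 1331 and 1136 in the siRBFOX2 libraries, and the siQKI libraries overlapped siCtrl whereas the siRBFOX2 libraries did not. COL11A2 rose in siRBFOX2 cells by 0.77 (standard error 0.19, limma adjusted p = 0.00759), a call lost without the trend (adjusted p = 0.0611 in limma), and had 0.03 in siQKI cells (adjusted p = 0.935 from limma). Relative to COL5A1, with which it can form mixed trimers, COL11A1 per kilobase stood at 1.51 ± 0.0804 in siCtrl, 1.57 ± 0.0987 in siQKI and 2.17 ± 0.0964 in siRBFOX2 cells (mean ± SD, n = 3).

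The fibrillar genes COL2A1 and COL24A1 passed the threshold at low levels. COL2A1, the collagen of cartilage, had 99.6, 122 and 125 normalized counts in the siCtrl, 281, 385 and 256 in the siQKI and 191, 205 and 194 in the siRBFOX2 libraries, so that no knockdown library reached down to the siCtrl range. It rose by 1.39 (standard error 0.25, limma adjusted p = 0.000545) in siQKI and 0.77 (standard error 0.25, limma adjusted p = 0.0352) in siRBFOX2 cells, and the latter call was lost without any 1 of the siCtrl or siRBFOX2 libraries (adjusted p up to 0.101 in limma). COL24A1 (GSHG0002613; chromosome 1, 85729233 to 86156984), which encodes a fibrillar chain described in developing bone and cornea, had 245, 157 and 151 normalized counts in the siCtrl, 123, 106 and 91.2 in the siQKI and 364, 333 and 475 in the siRBFOX2 libraries. The siQKI libraries lay below and the siRBFOX2 libraries above all siCtrl libraries. The log2 fold change was -0.76 (standard error 0.27, limma adjusted p = 0.046) in siQKI and 1.10 (standard error 0.27, limma adjusted p = 0.00764) in siRBFOX2 cells. The fall in siQKI cells was near the threshold and was lost in 12 of the 17 alternatives, among them those without siCtrl replicate 1 or 2, siQKI replicate 2 or 3 or any siRBFOX2 library (adjusted p up to 0.197 in limma), whereas the rise in siRBFOX2 cells held in all 17. The 3 tested fibrillar genes that passed in neither knockdown, COL3A1, COL5A3 and COL27A1, had log2 fold changes from -0.09 to 0.43 with standard errors of 0.12 to 0.32.

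The type VI chains, which form a pericellular filament, moved in different knockdowns. COL6A2 had 8563, 9295 and 9181 normalized counts in the siCtrl, 11648, 11018 and 10030 in the siQKI and 9345, 8716 and 9117 in the siRBFOX2 libraries. The siQKI libraries were highest, and the other 2 groups overlapped. COL6A2 rose by 0.27 (standard error 0.06, limma adjusted p = 0.00216) in siQKI cells and had 0.01 in siRBFOX2 cells (adjusted p = 0.946 from limma). COL6A1 had 9590, 7845 and 8777 normalized counts in the siCtrl, 9050, 8199 and 7926 in the siQKI and 10068, 10902 and 9691 in the siRBFOX2 libraries, and only the siRBFOX2 libraries all exceeded the siCtrl libraries. It rose by 0.23 (standard error 0.07, limma adjusted p = 0.0306) in siRBFOX2 cells, a call lost without siCtrl replicate 2 or 3, siRBFOX2 replicate 1 or 2, or the trend (adjusted p up to 0.154 in limma), and had -0.06 in siQKI cells (adjusted p = 0.621 from limma). The COL6A2 to COL6A1 ratio per kilobase was 1.28 ± 0.179 in siCtrl, 1.59 ± 0.0496 in siQKI and 1.09 ± 0.0957 in siRBFOX2 cells (SD, n = 3). COL6A3, the largest type VI chain, was at 0.281 ± 0.0277 rescaled counts per 1000000 and kilobase in siCtrl cells, far below both partners, and had -0.03 in each knockdown. COL7A1, the anchoring fibril collagen, had 1538, 1464 and 1464 normalized counts in the siCtrl, 1724, 1850 and 1718 in the siQKI and 1773, 1815 and 1579 in the siRBFOX2 libraries. All knockdown libraries lay above the siCtrl libraries. The siQKI rise of 0.24 (standard error 0.09, limma adjusted p = 0.0449) was lost in 10 of 17 alternatives, among them those without any 1 of the siCtrl or siQKI libraries or without siRBFOX2 replicate 1 (adjusted p up to 0.150 in limma), and the siRBFOX2 value was 0.21 (standard error 0.09, limma adjusted p = 0.101).

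Of the 10 FACIT genes 8 were tested, of which 3 rose and 0 fell in siQKI cells, and 3 rose and 1 fell in siRBFOX2 cells. The share that rose was 37.5% in each knockdown, beside 14.9% and 12% of all tested genes. In either direction, 37.5% were called in siQKI and 50% in siRBFOX2 cells, beside 33.0% and 26.5%. COL12A1 (GSHG0038146; chromosome 6, 75084326 to 75206053), which links fibrils to their surroundings in dense connective tissue, had 4728, 4040 and 4264 normalized counts in the siCtrl, 7043, 7763 and 7830 in the siQKI and 6133, 5915 and 5507 in the siRBFOX2 libraries. The 3 groups did not overlap, and COL12A1 rose by 0.80 (standard error 0.07, limma adjusted p = 5.11e-07) and 0.43 (standard error 0.07, limma adjusted p = 0.0003). COL21A1, a FACIT collagen described in vessel walls, had 544, 634 and 319.9 normalized counts in the siCtrl, 1086, 1087 and 1407 in the siQKI and 984, 1272 and 619.7 in the siRBFOX2 libraries, with siQKI libraries above all siCtrl libraries and 1 siRBFOX2 library within the siCtrl range. It rose by 1.30 (standard error 0.26, limma adjusted p = 0.000998) in siQKI and 0.94 (standard error 0.26, limma adjusted p = 0.0132) in siRBFOX2 cells, where the call was lost without siCtrl replicate 3, siRBFOX2 replicate 2 or the trend (adjusted p up to 0.104 in limma).

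COL9A3 rose in siQKI cells. It had 3394, 3381 and 3215 normalized counts in the siCtrl, 4861, 4543 and 5141 in the siQKI and 3304, 3605 and 2472 in the siRBFOX2 libraries, and the siQKI libraries were above all others. The log2 fold change was 0.54 (standard error 0.11, limma adjusted p = 0.00108) in siQKI and -0.11 (standard error 0.11, limma adjusted p = 0.523) in siRBFOX2 cells, and COL9A3 overlaps TCFL5 by 155 bases. COL16A1, a FACIT collagen found near basement membranes, had 852, 1369 and 1176 normalized counts in the siCtrl, 1420, 1344 and 1539 in the siQKI and 1676, 1518 and 1588 in the siRBFOX2 libraries. The siRBFOX2 libraries were above all siCtrl libraries, and siCtrl replicate 2 overlapped the siQKI range. It rose in siRBFOX2 cells by 0.52 (standard error 0.14, limma adjusted p = 0.0126), a call lost without the trend (adjusted p = 0.0732 in limma), and stood at 0.37 (standard error 0.14, limma adjusted p = 0.0599) in siQKI cells, where the threshold was passed without siCtrl replicate 2 (0.52, adjusted p = 0.0102) and with upper-quartile rescaling (adjusted p = 0.0288). COL22A1, known from tissue junctions such as muscle to tendon, had 399, 225 and 437 normalized counts in the siCtrl, 177, 247 and 187 in the siQKI and 152, 228 and 132 in the siRBFOX2 libraries. The siRBFOX2 libraries overlapped the siCtrl libraries at siCtrl replicate 2 only. COL22A1 fell in siRBFOX2 cells, with -1.03 (standard error 0.30, limma adjusted p = 0.0189), and this call was lost without siCtrl replicate 1 or 3, siRBFOX2 replicate 1 or 3, or the trend (adjusted p up to 0.0940 in limma), while the siQKI value was -0.75 (standard error 0.30, limma adjusted p = 0.0676) and passed only without siCtrl replicate 2 (-1.05, adjusted p = 0.0155).

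Both tested transmembrane collagens were lower after knockdown of QKI, where 18.1% of all tested genes were lower. COL13A1 (GSHG0004165; chromosome 10, 69801906 to 69959144), found at cell contacts and neuromuscular junctions, had 3499, 2789 and 3536 normalized counts in the siCtrl, 1193, 1366 and 1608 in the siQKI and 1781, 1588 and 2184 in the siRBFOX2 libraries. All knockdown libraries were below all siCtrl libraries. The log2 fold change was -1.24 (standard error 0.13, limma adjusted p = 4.10e-06) in siQKI and -0.83 (standard error 0.13, limma adjusted p = 0.0003) in siRBFOX2 cells, and both calls held in all 17 alternatives. COL17A1 (GSHG0005443; chromosome 10, 104031286 to 104085880), the hemidesmosomal collagen of basal keratinocytes, had 532, 439 and 469.8 normalized counts in the siCtrl, 374, 183 and 153 in the siQKI and 370.2, 208 and 320.5 in the siRBFOX2 libraries. Every knockdown library was below every siCtrl library, and siQKI replicate 1 was the highest of the siQKI libraries. COL17A1 fell in siQKI cells, with -1.13 (standard error 0.30, limma adjusted p = 0.00954), but not past the threshold without siQKI replicate 3 or without the trend (adjusted p = 0.0513 and 0.0602 in limma). In siRBFOX2 cells it had -0.71 (standard error 0.30, limma adjusted p = 0.101), and passed the threshold in a fit of siRBFOX2 and siCtrl libraries alone (adjusted p = 0.0354) and without siQKI replicate 1 (adjusted p = 0.0376).

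Of the 2 multiplexin genes 1 rose in each knockdown, COL18A1 in siQKI and COL15A1 in siRBFOX2 cells. Of the 2 tested genes outside the named classes, COL26A1 rose in both knockdowns and COL28A1 passed in neither. Over all tested genes 14.9% rose in siQKI and 12% in siRBFOX2 cells. COL18A1 (GSHG0027855; chromosome 21, 45405142 to 45513720) had 247630, 260855 and 254972 normalized counts in the siCtrl, 298344, 289884 and 290591 in the siQKI and 282997, 267401 and 268916 in the siRBFOX2 libraries. The siQKI libraries were highest and the siRBFOX2 libraries intermediate, without overlap. Its rise in siQKI cells was 0.20 (standard error 0.04, limma adjusted p = 0.000505), a small fold change of the most abundant collagen RNA, and the siRBFOX2 value was 0.10 (standard error 0.04, limma adjusted p = 0.0543), which passed without siRBFOX2 replicate 2 (adjusted p = 0.0438), with upper-quartile rescaling (adjusted p = 0.0105) and over genes with a mean of at least 50 (adjusted p = 0.0471). COL18A1 overlaps SLC19A1 by 20149 bases, and reads there cannot be assigned without the strand. COL15A1 had 154, 163 and 219 normalized counts in the siCtrl, 368, 231 and 233 in the siQKI and 551, 325 and 319 in the siRBFOX2 libraries, all knockdown libraries being above siCtrl. It rose in siRBFOX2 cells by 1.12 (standard error 0.28, limma adjusted p = 0.00685) and had 0.61 (standard error 0.28, limma adjusted p = 0.106) in siQKI cells. COL26A1, a collagen with short triple-helical stretches, had 835, 809 and 754 normalized counts in the siCtrl, 1568, 1542 and 1437 in the siQKI and 1264, 1032 and 969.8 in the siRBFOX2 libraries. The 3 groups were apart, and COL26A1 rose by 0.92 (standard error 0.12, limma adjusted p = 2.01e-05) and 0.44 (standard error 0.12, limma adjusted p = 0.0113), the latter not past the threshold without siRBFOX2 replicate 1 (adjusted p = 0.0648 in limma).

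Of the 33 tested genes, 10 passed in neither knockdown. Besides COL3A1, COL5A3, COL27A1, COL4A6 and COL6A3, these were 5 genes with siCtrl means of 22.7 to 673 normalized counts. COL8A2, a short-chain collagen of the corneal endothelial membrane, had 0.43 in siQKI and 0.69 in siRBFOX2 cells on the log2 scale. The FACIT chains COL9A2, COL14A1 and COL20A1 had -0.12, -1.29 and 1.18 in siQKI cells and 0.36, -1.17 and -1.88 in siRBFOX2 cells. COL28A1 had -0.47 and 1.86.

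To find which collagens separate the knockdowns, siQKI and siRBFOX2 libraries were compared directly. Of the 33 tested collagen genes 12 differed, 7 higher and 5 lower in siQKI cells, where 21.5% of all tested genes differed. This count was 11 to 12 with each library left out in turn. By upper-quartile rescaling it was 8 higher and 4 lower, and the higher share of all calls moved from 46.2% to 55.3%. Among these 12 genes COL24A1 had the largest difference, -1.86 (standard error 0.27, limma adjusted p = 0.000164) on the log2 scale, as siQKI minus siRBFOX2. COL5A1 was higher in siQKI cells by 0.44 (standard error 0.04, limma adjusted p = 1.05e-06), COL1A1 by 0.57 (standard error 0.11, limma adjusted p = 0.00141), COL9A3 by 0.65 (standard error 0.11, limma adjusted p = 0.000424) and COL12A1 by 0.37 (standard error 0.07, limma adjusted p = 0.0013). COL26A1, COL6A2 and COL5A2 were higher by 0.49, 0.26 and 0.17 (adjusted p = 0.00704, 0.00441 and 0.00729 in limma). COL4A1 was lower in siQKI than in siRBFOX2 cells by -0.33 (standard error 0.06, limma adjusted p = 0.000878), as were COL11A2 with -0.74, COL13A1 with -0.41 and COL6A1 with -0.29 (adjusted p = 0.0112, 0.0383 and 0.0108 in limma). These 3 calls and that of COL5A2 were lost without the trend. COL13A1 was also lost with upper-quartile rescaling and without siQKI replicate 1 or 2 or siRBFOX2 replicate 1 or 3 (adjusted p up to 0.175), COL11A2 without siRBFOX2 replicate 2 and COL6A1 without siQKI replicate 3. For COL4A2, COL4A5 and COL11A1 the difference between the knockdowns did not pass the threshold, with 0.11, -0.25 and -0.03 and standard errors of 0.07, 0.11 and 0.05.

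The control libraries of the 2 lines differed in which collagens they expressed. Each line's table had its own normalization, so the rescaled values are described without a test. Of the 44 genes, 33 averaged at least 10 normalized counts in PANC-1 siCtrl, 21 in HPAF-II siCtrl and 20 in both lines. Among the 34 with this mean in either line, 26 were at least 2-fold lower (5 of them listed at 0 there) and 6 at least 2-fold higher in HPAF-II, beside 25.2% and 27.2% of the 24673 genes compared. The genes counted as higher include COL1A2, which was at 0 in PANC-1 siCtrl cells and above 0 in HPAF-II replicate 1 only. The libraries of the lines did not overlap for 29 of the 34, beside 63.7% of all genes compared. Only 20 of the 34 had this mean in both lines, and the others entered through the line where they were higher. The counts of lower, higher and non-overlapping genes therefore follow in part from this filter, which also selected all genes compared. The share of the library in collagen genes was 0.0422%, 0.0445% and 0.0453% in HPAF-II, below all PANC-1 libraries.

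COL17A1, the hemidesmosomal collagen, carried most of the collagen RNA of HPAF-II. It had 95123, 105352 and 95680 normalized counts in the HPAF-II libraries and 532, 439 and 469.8 in the PANC-1 siCtrl libraries, a ratio of 249 after rescaling. It made up 80.5%, 82.5% and 74.4% of the collagen counts of HPAF-II libraries and 0.107% to 0.131% of those of PANC-1 siCtrl libraries. An unnamed gene that overlaps COL17A1 by 8691 bases was also high there, with a mean of 1263 normalized counts in HPAF-II and 32.5 in PANC-1 siCtrl cells. After COL17A1 (62 ± 2.94 rescaled counts per 1000000 and kilobase) came COL9A3 (3.66 ± 2.45), COL9A2 (2.86 ± 0.773), COL1A1 (2.75 ± 0.175), COL18A1 (2.74 ± 1.79), COL4A2 (2.66 ± 0.129), COL4A5 (1.41 ± 0.0387) and COL13A1 (0.647 ± 0.186). From COL9A3 to COL4A2 in this order, the ranges of neighbors overlapped. HPAF-II replicate 3 was above the others for COL18A1, with 2876, 3511 and 8992 normalized counts, and for COL9A3, with 1519, 1651 and 4586.

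The type IV chains again behaved unequally. COL4A2 had 5082, 4743 and 4861 normalized counts in HPAF-II and was 2.5-fold higher than in PANC-1 siCtrl cells, whereas COL4A1 had 299.9, 87.1 and 128 and was 23.5-fold lower (38.0-fold without HPAF-II replicate 1). The COL4A2 to COL4A1 ratio per kilobase was 17.3, 55.5 and 38.8 in the HPAF-II libraries, against 0.492 ± 0.0319 (SD, n = 3) in PANC-1 siCtrl libraries, although the start sites lie 127 bases apart. COL4A2-AS1, a transcript of the opposite strand inside COL4A2, had 29.6, 96.2 and 79.8 normalized counts in HPAF-II and 0, 8.99 and 9.05 in PANC-1 siCtrl libraries. Its reads cannot be told from those of COL4A2 without the strand of counting, and its part in the ratio was not tested. COL4A5 was 2.63-fold and COL9A2 4.19-fold higher in HPAF-II. COL28A1, a collagen known from peripheral nerve, had 315, 275 and 125 normalized counts in HPAF-II and 0, 68 and 0 in PANC-1 siCtrl libraries. COL1A2 was listed at 0 in PANC-1 siCtrl and in 2 HPAF-II libraries and had 970 in HPAF-II replicate 1 only.

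The tested chains of collagens V, XI and VI were lower than in PANC-1 siCtrl cells, or at 0, in HPAF-II. COL5A1 was listed at 0 in all 3 libraries, as were COL15A1, COL20A1, COL21A1 and COL22A1 among the genes tested in PANC-1. COL11A1 had 0, 0 and 9.18, COL5A2 574, 182 and 96.4 and COL6A2 24.7, 0 and 0 normalized counts, and COL5A2 was 130-fold lower than in PANC-1 (269.6-fold without HPAF-II replicate 1). COL18A1 was 41-fold (65.7-fold without HPAF-II replicate 3), COL6A1 11.2-fold, COL13A1 4.76-fold and COL11A2 2.21-fold lower in HPAF-II. Without HPAF-II replicate 2, COL11A2 was 1.87-fold lower, that is, within 2-fold. COL1A1 and COL9A3 were within 2-fold of the PANC-1 level, COL9A3 also without HPAF-II replicate 3 (1.73-fold lower). HPAF-II replicate 1 was the highest for COL1A2, COL3A1 (29.6, 0 and 0), COL6A2, COL6A3 (133, 0 and 3.67) and COL12A1 (95, 0 and 12.8). DCN, a fibroblast proteoglycan, was also highest there, with 279, 18.3 and 34 normalized counts in replicates 1, 2 and 3, while LUM was at 249, 284 and 359 and FAP at 96.3, 61.9 and 129, and PDGFRA, THY1 and POSTN were at 0. Without replicate 1, COL1A2, COL3A1 and COL6A2 were listed at 0 in the HPAF-II libraries left, and COL6A3 was listed at 0 in replicate 2 and at 3.67 normalized counts in replicate 3. The part of fibroblast RNA in these values was not tested.

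A collagen chain needs a set of enzymes and carriers before it becomes part of the matrix, and 37 such genes were examined. All were tested. In siQKI cells 14 passed the threshold, 8 higher and 6 lower (37.8%), and in siRBFOX2 cells 11 passed, 5 higher and 6 lower (29.7%), close to the shares of all tested genes. By upper-quartile rescaling the split was 11 higher and 2 lower in siQKI and 7 higher and 4 lower in siRBFOX2 cells. The count dropped to 9 in siQKI cells without siCtrl replicate 3 and to 7 in siRBFOX2 cells without siCtrl replicate 2.

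The genes that rose included lysyl hydroxylases and cross-linking oxidases. Of the 15 genes of hydroxylation and glycosylation, 3 rose and 2 fell in each knockdown (33.3% called, beside 33.0% and 26.5% of all tested genes). By upper-quartile rescaling 6 rose and 0 fell in siQKI cells, and 4 rose and 2 fell in siRBFOX2 cells. Of the 5 cross-linking genes, 3 rose in siQKI cells, and 2 rose and 1 fell in siRBFOX2 cells. The lysyl hydroxylase PLOD3 passed in neither knockdown. PLOD2, which hydroxylates telopeptide lysines for stable cross-links, had 15182, 14828 and 14687 normalized counts in the siCtrl, 23713, 22528 and 22782 in the siQKI and 19218, 19184 and 18896 in the siRBFOX2 libraries. The groups did not overlap, and it rose by 0.63 (standard error 0.04, limma adjusted p = 2.00e-08) and 0.36 (standard error 0.04, limma adjusted p = 1.00e-05). LOXL4, an extracellular lysyl oxidase, had 697, 839.5 and 710.3 normalized counts in the siCtrl, 1752, 1738 and 1669 in the siQKI and 1723, 1720 and 1411 in the siRBFOX2 libraries, every knockdown library being above all siCtrl libraries. It rose by 1.20 (standard error 0.11, limma adjusted p = 9.27e-07) and 1.11 (standard error 0.11, limma adjusted p = 4.00e-06). LOX, the founding lysyl oxidase, had 103, 107 and 178 normalized counts in the siCtrl, 216, 229 and 249.5 in the siQKI and 261, 249 and 194 in the siRBFOX2 libraries, with all knockdown libraries above siCtrl. It rose by 0.88 (standard error 0.28, limma adjusted p = 0.0231) and 0.89 (standard error 0.28, limma adjusted p = 0.0267), both lost without siCtrl replicate 1 or 2, in siQKI also without siQKI replicate 2 or 3 and in siRBFOX2 without siRBFOX2 replicate 1 or 2 (adjusted p up to 0.0793 and 0.0914 in limma). The prolyl hydroxylase subunit P4HA1 rose by 0.21 in siQKI and 0.30 in siRBFOX2 cells, and PLOD1 by 0.12 and 0.17 (adjusted p = 0.0152, 0.0018, 0.0408 and 0.00878 in limma). In siQKI cells the P4HA1 call was lost without the trend, siCtrl replicate 1 or siQKI replicate 1, and that of PLOD1 without the trend, siCtrl replicate 1 or 3 or any siQKI library.

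The split of folding and export factors depended on the scaling. Of 9 such genes, 1 rose and 4 fell in siQKI cells, and 3 fell in siRBFOX2 cells, where 18.1% and 14.5% of all tested genes were lower. By upper-quartile rescaling 1 rose and 2 fell in siQKI cells, and 1 rose and 1 fell in siRBFOX2 cells. FKBP14, a prolyl isomerase of the endoplasmic reticulum, had 16243, 15234 and 15971 normalized counts in the siCtrl, 11458, 12325 and 12405 in the siQKI and 14415, 14271 and 14585 in the siRBFOX2 libraries. Both knockdowns lay below siCtrl, siQKI lowest, with no overlap. It fell in siQKI cells, with -0.39 (standard error 0.05, limma adjusted p = 1.03e-05), whereas its siRBFOX2 value of -0.13 (standard error 0.05, limma adjusted p = 0.0459) was lost in 12 of 17 alternatives, among them those without siCtrl replicate 1 or 3, siQKI replicate 2 or 3 or any siRBFOX2 library. CRTAP, of the prolyl 3-hydroxylation complex, fell by 0.19 and 0.22 on the log2 scale, and the export coat subunit SEC24D fell by 0.18 and 0.30 (adjusted p = 0.00893, 0.00482, 0.0341 and 0.00178 in limma). The siQKI call of SEC24D was lost without siCtrl replicate 2 or 3, without siQKI replicate 1 or 3 and, like that of CRTAP, with upper-quartile rescaling. In siRBFOX2 cells LOXL3 fell by 0.51 and P3H3 by 0.36 (adjusted p = 0.018 and 0.0177 in limma), both lost without siCtrl replicate 2, and also without siRBFOX2 replicate 2 for LOXL3 and siRBFOX2 replicate 1 for P3H3. Of the 8 genes of propeptide cleavage, 1 rose in siQKI cells (12.5%, near the 14.9% of all tested genes that rose).

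**Figure D4:**
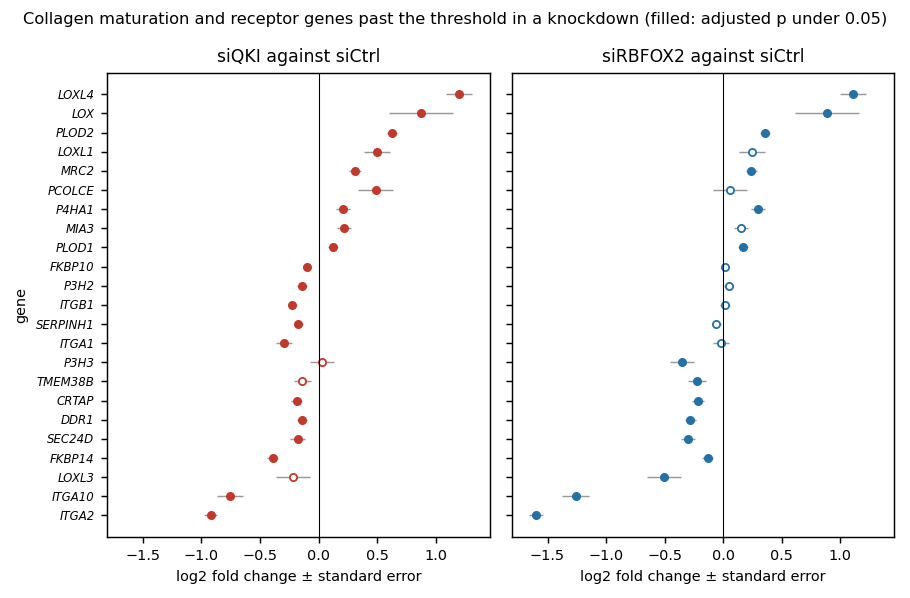
Log2 fold change (points) with its standard error (bars) of the collagen maturation and receptor genes that passed an adjusted p of 0.05 in at least 1 knockdown (filled points), in siQKI (left) and siRBFOX2 (right) cells. LOXL4, LOX and PLOD2 lie at the top and the receptor genes ITGA10 and ITGA2 at the bottom in both panels.

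Among the receptors the integrin chains ITGA2 and ITGA10 fell in both knockdowns. Of 10 receptor genes 9 were tested, of which 1 rose and 5 fell in siQKI cells, and 1 rose and 3 fell in siRBFOX2 cells. Over all tested genes 14.9% were higher and 18.1% lower in siQKI cells, and 12% and 14.5% in siRBFOX2 cells. By upper-quartile rescaling 1 receptor gene rose and 4 fell in siQKI cells, and 1 rose and 3 fell in siRBFOX2 cells. The receptors named here were chosen after their values were seen. ITGA2, the α2 chain of a major collagen-binding integrin, had 49488, 48989 and 56320 normalized counts in the siCtrl, 25188, 28162 and 28335 in the siQKI and 16447, 17467 and 17071 in the siRBFOX2 libraries. The 3 groups were apart, and ITGA2 fell in siQKI cells (-0.92, adjusted p = 1.84e-08 in limma) and in siRBFOX2 cells (-1.60, adjusted p = 1.10e-10 in limma). ITGA10, the α10 integrin chain, had 1852, 1739 and 1573 normalized counts in the siCtrl, 928, 1131 and 996 in the siQKI and 733, 677 and 740.1 in the siRBFOX2 libraries. Its groups were apart, siRBFOX2 lowest, and it fell as well, with -0.76 and -1.26 (adjusted p = 9.50e-05 and 1.37e-06 in limma). MRC2, an endocytic receptor that takes up collagen, was the receptor that rose, by 0.31 and 0.24 (adjusted p = 0.000188 and 0.00209 in limma). These receptor calls held in all 17 alternatives.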

How the data were processed

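The 12 libraries comprised 3 each of PANC-1 siCtrl, siQKI and siRBFOX2 and of HPAF-II siCtrl, grouped by the labels. RNA was polyA-selected and sequenced as paired ends. Per the labels' processing notes, STAR 2.7.5a, FastQC, Picard, SAMtools and DESeq2 were used on hg38, and the study's methods name the FAST DB annotation. The signal values deposited by the authors are per-gene counts scaled with DESeq2 size factors, computed for each line on its own. All values came out as whole numbers of steps, to within 0.01, with 292248837 to 376192091 steps per PANC-1 library and 226697015 to 309720537 per HPAF-II library. Of values of 1 to 30 steps, 82.1% to 84.8% were multiples of 3, so steps do not stand for sequenced fragments, depth in fragments is unknown, and precision was taken from replicates. Counting strand is not given in the sources used here.

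Comparisons within PANC-1 used limma 3.58.1 (R 4.3.3; eBayes with trend) in 1 fit of 9 libraries on log2(normalized count + 1), with Benjamini-Hochberg adjustment over 22544 genes averaging 10 or more and a threshold of 0.05. Fold changes on this scale are understated for low genes. Tested on simulated data of the siQKI comparison with 200 of 22544 genes changed by 1 on the log2 scale, the fit recovered 117, all in the right direction, beside 13 false calls. These are far fewer changed genes than the 33.0% called in siQKI cells, so the simulation does not give the recovery of the real comparison. Lines were described by group means rescaled to 1000000 (log2 pseudocount 0.01). A gene listed at 0 in a whole group was given no fold in the text, but it was counted as higher or lower with the pseudocount. Transcript lengths are those of the longest GENCODE 29 transcript linked to RefSeq, for 43 of 44 genes, and of the longest protein-coding transcript for COL1A1. Python 3.11.15, numpy 2.4.6, pandas 2.3.3 and matplotlib 3.10.9 were used for summaries and figures.

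The collagen genes and the gene lists were chosen with earlier results of these data known. Genes named are the collagens past the threshold in a knockdown, the 8 highest per kilobase in each line, the maturation genes past it in both knockdowns or with the 3 largest changes in each direction, and the targets. The other genes with values, among them receptors, markers and further collagens, were named after their values were seen. The 17 alternatives for single calls were pseudocounts of 0.1 and 10, no filter or a mean of at least 50, upper-quartile rescaling, no trend, a replicate block, a fit of only the compared groups, and each library left out. Counts were also taken at an adjusted p of 0.01 and with a fold of 1.5. The alternatives of the receptor list, of single genes between the knockdowns, of splits by direction within lists and of folds between lines without a library were added after the data were seen.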

Additional observations from a re-analysis of the deposited data

How the results depend on the processing

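The count of collagen genes past the threshold stayed within 1.5 times the value given under every pseudocount, filter, scaling and choice of libraries tried. It was 15 to 18 in siQKI, 12 to 18 in siRBFOX2 and 11 to 12 between the knockdowns with each library left out. With a fold of at least 1.5 as a further condition it fell to 9 in siQKI, 8 in siRBFOX2 and 3 between the knockdowns, and in siRBFOX2 cells it was 10 without the mean-variance trend and 10 at an adjusted p under 0.01. Of 18 calls in siQKI cells 15 held in all 17 alternatives, as did 8 of 17 in siRBFOX2 cells and 8 of 12 between the knockdowns, and no called collagen gene changed direction. These 17 were judged at an adjusted p under 0.05 with no minimum fold. The maturation genes past the threshold numbered 7 in siQKI and 7 in siRBFOX2 cells without the trend, 7 and 6 at an adjusted p under 0.01, 3 and 2 with a fold of at least 1.5, and 9 to 17 and 7 to 11 with each library left out, the lowest without siCtrl replicate 3 and without siCtrl replicate 2. Receptor genes numbered 2 in each knockdown with that fold. Without the 10 genes of highest value in each library, the collagen share was 0.138% in siCtrl, 0.177% in siQKI, 0.162% in siRBFOX2 and 0.0494% in HPAF-II libraries. The cause of these shifts was not tested, beyond the stricter rules themselves. Between the lines, 30 to 33 collagen genes were at least 2-fold apart with each library left out and 29 with a pseudocount of 0.1.

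The labels give the PANC-1 groups the same replicate numbers. Libraries with the same number did not deviate together (r of their deviations across genes -0.0325 to 0.0235). The main fit used no pairing, but this check cannot tell whether libraries of the same number were made together. With the replicate block, 16 collagen genes passed in siQKI (14 higher and 2 lower), 17 in siRBFOX2 and 12 between the knockdowns, and 15 and 9 maturation genes in siQKI and siRBFOX2 cells. The block took the calls of COL7A1 (adjusted p = 0.0521) and COL24A1 (adjusted p = 0.0555) in siQKI cells by limma.

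Each group has 3 libraries of 1 line, the fragments behind a value are unknown, and across tested genes the siQKI fold changes had a median standard error of 0.14. It was 0.66 for COL14A1 and 1.85 for COL28A1, where small changes were not detectable. COL14A1 passed in siQKI cells without the trend (adjusted p = 0.0476 by limma).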

Other observations

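Genes named after collagens that are not themselves protein chains were counted apart. The pseudogene COL6A4P1 had 232, 282 and 92.7 normalized counts in the HPAF-II libraries, above the 0 to 66.1 of the PANC-1 siCtrl libraries. COL18A1-AS2, named as antisense to COL18A1 and not separable from it without the strand of counting, had 20.5, 15.7 and 15.7 normalized counts in siQKI libraries and 5.74, 8.99 and 0 in siCtrl libraries, and was listed at 0 in HPAF-II. COL5A1-AS1, COL6A4P2 and COL25A1-DT were listed at 0 in all 12 libraries.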
